A study of Arabidopsis thaliana with 3 samples.

Results

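MADS-box genes encode transcription factors that share a DNA-binding domain, and 120 of the 27444 protein-coding genes on Arabidopsis chromosomes 1 to 5 belong to them here. They were taken as every gene whose RefSeq product text names a MADS-box or an AGAMOUS-like protein. UBIQUITIN SPECIFIC PROTEASE 5 (UBP5) was mapped over them by chromatin immunoprecipitation and sequencing (ChIP-seq). The samples were a UBP5-GFP immunoprecipitate (IP) in 2 replicates and 1 input, which is sheared chromatin before precipitation. All came from UBP5::UBP5-GFP;ubp5 seedlings at 12 days after germination, in which a C-terminal GFP fusion of the genomic UBP5 sequence ran from its own promoter in a Col-0 plant whose endogenous copy carries a CRISPR deletion. Whole seedlings were pooled, so a site used in few cells cannot be told apart from one used weakly in many. Plants without GFP were not used for an IP here, so binding of UBP5 and any IP background absent from the input cannot be told apart.

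A gene was called bound when a peak of each replicate overlapped its body, from annotated start to end, by at least 1 bp. The files list peaks only, with 10266 in replicate 1 and 10898 in replicate 2 on chromosomes 1 to 5. Fold enrichment is the peak caller's ratio of IP to input at the summit, the highest point of a peak. The −log10 q of a peak measures how rarely background would give that height, after correction for the many positions tested. Read totals are not part of the peak lists. Those that the study states put replicate 2 far deeper than replicate 1 and the input, and −log10 q grows with depth, so its values are not compared between replicates. The part of depth in the folds was not tested. A gene without a peak is one at which none was called, not one shown to be free of UBP5. With 2 replicates and no control IP no test across samples was made, and genes are not replicates, so shares and medians are descriptions.

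UBP5 is one of the ubiquitin-specific proteases, enzymes that take ubiquitin off proteins, and Polycomb repressive complex 1 places ubiquitin on histone H2A. Many MADS-box genes are classical Polycomb targets in plants. FLOWERING LOCUS C (FLC) represses flowering until prolonged cold silences it through Polycomb repressive complex 2, and AGAMOUS (AG) is held off outside the flower by the same system. MADS-box genes fall into a type II class, whose members control flowering time, floral organs and roots and have long introns, and a type I class of short genes, several of which act in the gametophytes and the endosperm.

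At FLC both summits lay in the first coding exon, and its 5 nearest relatives, MADS AFFECTING FLOWERING 1 to 5 (MAF1 to MAF5), include both bound and unbound genes. The stretch of that exon under the FLC summits is therefore shown for FLC and 4 of them, read from the RefSeq TAIR10.1 assembly on the coding strand and aligned from the 3′ end of the exon. Capitals mark bases unlike FLC.
FLC, chr5:3179185-3179214, minus strand: cgtcgctcttctcgtcgtctccgcctccgg
MAF1, chr1:28955804-28955833, plus strand: cgtcgctGttGtcgtcgtAtcTgcctccgg
MAF3, chr5:25987652-25987681, plus strand: cAtcgctGttGtcgCcgtctccgGTtccgg
MAF4, chr5:25992435-25992464, plus strand: cgtcgctcttAtcAtcAtctcTgccAccgg
MAF5, chr5:25997796-25997825, plus strand: cgtcgctcttTtcAtcgtctcTTccAccgg
The bound MAF1 and MAF3 differ from FLC at 4 and 6 of these 30 bases, and the unbound MAF4 and MAF5 at 5 bases each. Over the last 185 bases of the exon, identity to FLC was 82.7% in MAF1, 82.2% in MAF3 and 81.1% in each of MAF4 and MAF5. The unbound MAF4 and MAF5 were 89.7% identical to each other, and the bound MAF1 and MAF3 92.4%.

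UBP5-GFP was called on few MADS-box genes. Peaks of both replicates overlapped 12 of 120 (10.0%), against 29.0% of all protein-coding genes. The bound genes were FLC, MAF1, MAF2, MAF3, SUPPRESSOR OF OVEREXPRESSION OF CO 1 (SOC1), AGL15, AGL16 and AGL18 of type II, and AGL80, AGL105, AT2G41440 and AT3G12510 from the rest. No peak of either replicate lay on 104 members, and for 93 of these the nearest peak was more than 1000 bp away. A peak of replicate 1 lay on 14 members, against 33.8% of all protein-coding genes. One of replicate 2 lay on 14 members as well, against 31.4%. The distance is not given for all genes, so the count of 93 is not a trait of the family. AGL30 and AT2G41470 had a peak in replicate 1 only, with folds of 2.05 and 1.735. AT1G59920 and AT1G59930 had one in replicate 2 only, with folds of 2.16 and 2.23. In those last genes only 25.7% and 42.6% of 31-base words occur once in the genome, and reads that aligned to more than 1 place had been discarded.

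Gene length moved with the call. Among other protein-coding genes the bound share was 4.62% in the shortest of 10 length strata and 48.1% in the longest, and MADS-box genes had a median length of 1211.5 bp, against 2078 bp for all protein-coding genes. At the bound share of other genes in the same strata, 28.2 of the 120 members (23.5%) would be bound. The observed count was 0.425 times that number. Members had a lower share than other genes in every stratum that held any, except the shortest, in which 1 of 19 members was bound.

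**Figure D1:**
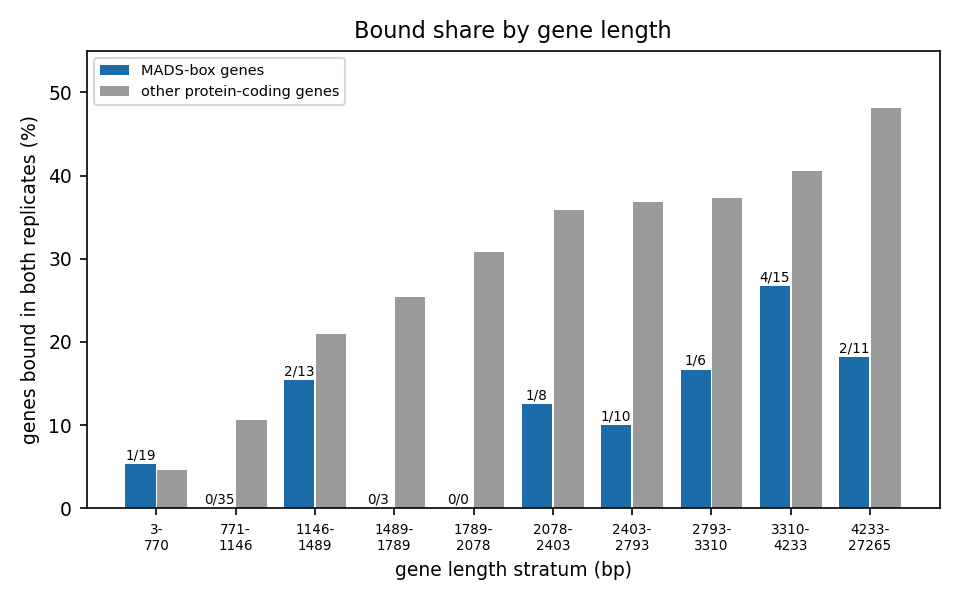
Share of genes bound in both replicates (%, vertical axis) in 10 strata of gene length (bp, horizontal axis), MADS-box genes in blue and other protein-coding genes in grey. Numbers over the blue bars are bound over all members, and the fifth stratum holds no member. The grey bars climb from 4.62% to 48.1%, and the blue bars lie below them except in the shortest stratum.

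The bound share was below that of like length both in type II and outside the type II list. Of type II genes, 8 of 44 were bound (18.2%), against 40.8% of other genes at the same lengths. All 8 belong to the 38 MIKCc genes, the classical type II form (21.1%, against 41.1% at the same lengths). None of the 6 MIKC* genes, which act mainly in pollen, was bound, against 2.35 at the share of like length. The MIKC* gene AGL30 had a peak in replicate 1 only. Outside the type II list 4 of 76 genes were bound (5.26%), against 13.5% at the same lengths. Of these 76 genes 52 have 1 exon, but the group is not type I alone by structure. The bound AT2G41440 has up to 12 exons over 3252 bp. Bound and unbound MIKCc genes were of similar length, with medians of 3924.5 and 3794.5 bp. All 44 type II genes, and 82 of all 120 members, have at least 95% of their 31-base words unique in the genome.

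A low share was not particular to MADS-box genes. Taken by product text in the same way, 6 of 82 homeobox genes (7.32%), 14 of 106 NAC genes (13.2%) and 4 of 72 WRKY genes (5.56%) were bound. These families of developmental and stress transcription factors would have 24.6, 29.5 and 21.7 bound genes at the share of their lengths.

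**Figure D2:**
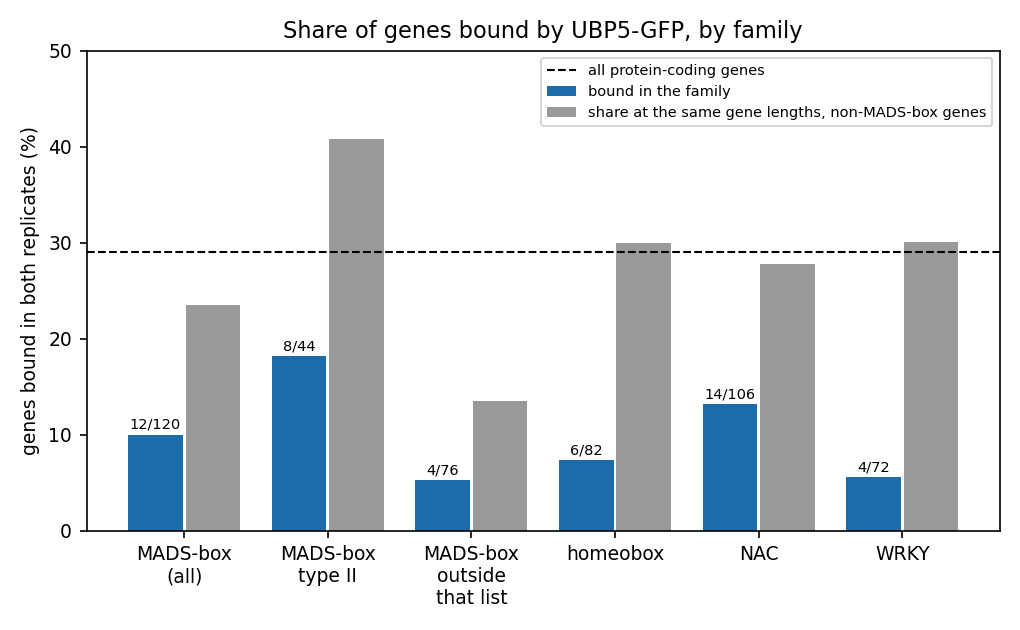
Share of genes bound in both replicates (%, vertical axis) in MADS-box genes, their 2 parts and 3 other transcription factor families in blue, beside the share of non-MADS-box genes at the same lengths in grey. The dashed line is the share over all protein-coding genes, 29.0%, and each blue bar is below both its grey neighbour and the line.

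In the FLC clade 4 of 6 genes were bound, against 2.66 at the share of like length, and in the AGL15 clade both genes, against 0.727. No other clade of type II exceeded that number. The genes of the FLC clade encode repressors of flowering. MAF3 had a fold of 3.29 in replicate 1 and 2.39 in replicate 2, and MAF2, which delays the response to short cold, had 2.98 and 2.50. Both stood in the upper part of all bound genes, above 82.4% and 73.6% of them for MAF3 and above 73.5% and 77.7% for MAF2 in replicates 1 and 2. MAF1, also known as FLM, had folds of 2.18 and 2.10. FLC itself was among the weakest bound members, with folds of 1.96 and 1.72 and a −log10 q of 6.76 and 11.32. Only 10.2% of all bound genes in replicate 1 and 25.0% in replicate 2 were below it. The FLC peaks, at chr5:3179063-3179372 and chr5:3179071-3179359, also lay over the antisense non-coding gene AT5G01675, and ChIP-seq does not tell which of overlapping genes a peak belongs to.

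MAF2 to MAF5 stand in tandem on chromosome 5, in the same direction. Peaks of both replicates lay near the starts of MAF2 and MAF3, and no peak lay on MAF4 or MAF5, whose nearest peaks were 4269 and 4284 bp and 9420 and 9426 bp away in replicates 1 and 2. Of the 31-base words of MAF2, MAF3, MAF4 and MAF5, 96.4%, 96.0%, 99.6% and 99.5% are unique. A further peak of replicate 1, with a fold of 1.735, lay 1539 to 1928 bp before MAF2.

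**Figure D3:**
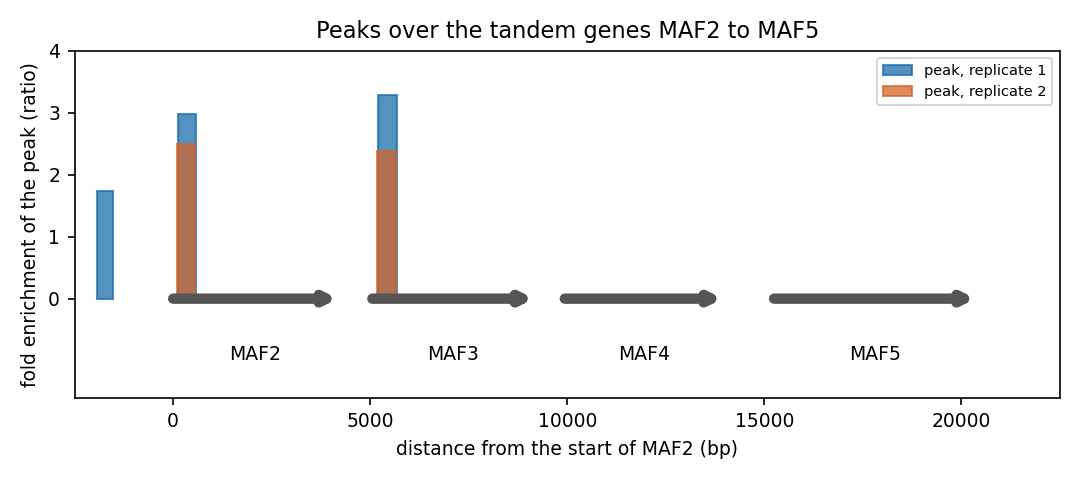
Peaks over the tandem genes MAF2 to MAF5. The horizontal axis gives the distance from the start of MAF2 (bp) and the vertical axis the fold enrichment of each peak (ratio), arrows are genes drawn in the direction of transcription, and bars are peaks of replicate 1 in blue and replicate 2 in orange. Peaks of both replicates stand at the starts of MAF2 and MAF3, and MAF4 and MAF5 have none.

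Among flowering-time genes outside the FLC clade, SOC1 alone was bound of the 6 genes of its clade. SOC1 activates flowering and integrates several pathways. Its fold was 2.09 in replicate 1 and 1.36 in replicate 2, with a −log10 q of 8.6 and 2.86, and only 0.163% of all bound genes were weaker in replicate 2. The call of SOC1 thus rests on a peak close to the caller's threshold in that replicate. AGL14, AGL19, AGL42, AGL71 and AGL72 of the same clade had no peak on the body. Short Vegetative Phase (SVP), a repressor that acts together with FLC, and AGL24, a promoter of flowering, form the SVP clade and had no peak, with SVP at 12709 and 12679 bp from the nearest one and AGL24 at 1023 and 1004 bp.

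AGL15 and AGL18, related repressors of flowering that also act in embryos, were both bound. AGL15 had folds of 1.89 and 1.79, and AGL18 had folds of 2.11 and 1.95. AGL16, which acts in stomatal development and flowering time, was the bound member with the largest lower fold of the 2 replicates, at 3.16 and 2.56. It was the only bound gene of the 4 in the ANR1 clade, named after a root nitrate-response gene. AGL21 of that clade had no peak on its body and the nearest one 329 and 313 bp away.

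None of the 17 genes of the clades that build the flower was bound, against 6.85 (40.3%) at the share of like length. These clades hold AG, SHATTERPROOF 1 and 2 (SHP1, SHP2) and SEEDSTICK (STK), which specify stamens, carpels and ovules, and APETALA1 (AP1), CAULIFLOWER (CAL) and FRUITFULL (FUL), which act in the floral meristem and fruit. They also hold APETALA3 (AP3) and PISTILLATA (PI), which specify petals and stamens, the SEPALLATA genes (SEP1 to SEP4), which are their common partners, AGL6, AGL13, AGL79 and the B sister gene TT16. The nearest peaks of replicates 1 and 2 were 4779 and 4870 bp from AG, 10881 and 10884 bp from AP1, 3567 and 3503 bp from AP3, and 6230 and 6322 bp from PI. CAL was the named floral gene with the closest peaks, at 266 and 277 bp. Transcript levels were not analysed here.

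Of the 4 bound genes outside the type II list, AT2G41440 had folds of 2.85 and 2.45 and AT3G12510 of 2.62 and 2.19. AGL80, which is needed in the central cell of the female gametophyte, had 2.11 and 1.995. AGL105 had 2.05 and 2.08, but its summits lay 179 and 63 bp before its start, and the peaks reached into it by 118 and 109 bp and also covered AT5G37420. The AT3G12510 peaks also lay over the non-coding gene AT3G02535.

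The folds of bound MADS-box genes lay within the range of all bound genes. Their median fold was 2.15 in replicate 1 and 2.09 in replicate 2, against 2.49 and 1.995 over all bound protein-coding genes, so the members lay below the whole in replicate 1 and above it in replicate 2. In replicate 1, 5 of the 12 members exceeded the median of all bound genes, and in replicate 2, 7 did. In 11 of 12 members the fold was higher in replicate 1, as was the median of all bound genes. Of all 120 members, bound or not, none reached a fold of 3 in both replicates, against 2.95 at the share of like length. Of all protein-coding genes, bound or not, 3.00% reached it.

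**Figure D4:**
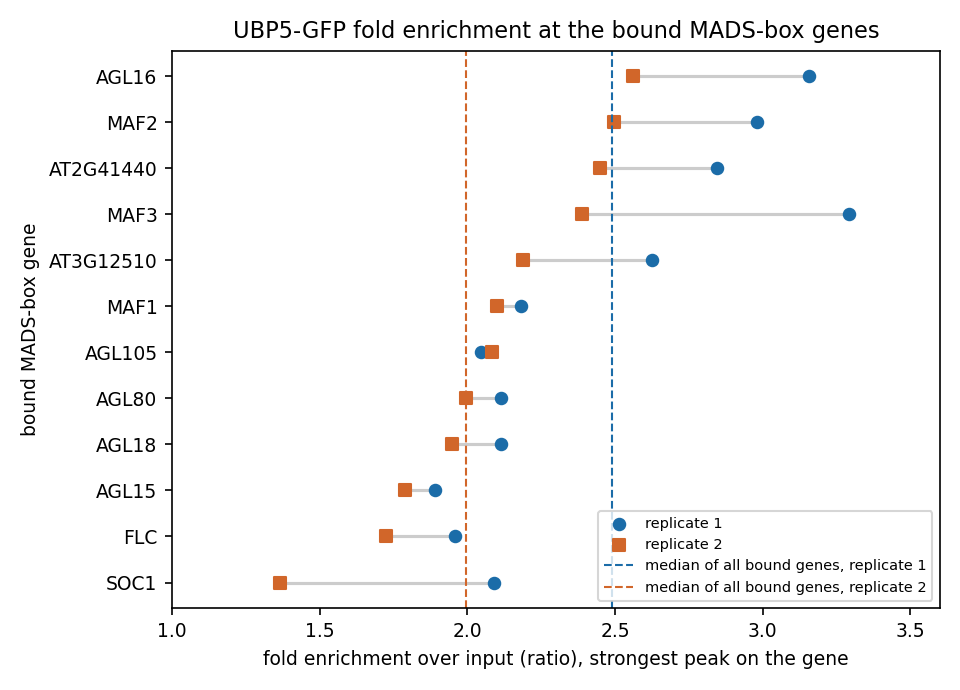
Fold enrichment over input (ratio, horizontal axis) of the strongest peak on each of the 12 bound MADS-box genes, replicate 1 as blue circles and replicate 2 as orange squares. Dashed lines are the medians of all bound genes, 2.49 in replicate 1 and 1.995 in replicate 2. AGL16, MAF2, MAF3 and AT2G41440 stand highest, and FLC, SOC1 and AGL15 lowest.

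Summits lay just inside the genes. From the annotated start to the summit of the strongest peak the median distance was 359.5 bp (replicate 1) and 339.5 bp (replicate 2), against 328 and 331 bp over all bound protein-coding genes. Of the 12 members, 9 in replicate 1 and 8 in replicate 2 had it between 0 and 500 bp downstream of the start, against 80.4% and 81.2% of all bound genes. The summits of the replicates were at most 60 bp apart in 8 of 12 members, a count without a share over all bound genes beside it. In the isoform with the longest coding sequence, both summits fell in the first coding exon of 7 of 12 bound members. These were FLC, MAF1, MAF3, AGL15, AGL16, AGL80 and AT3G12510. At MAF1 and AGL16 both summits lie in the 5′ UTR of another isoform. No such share over all bound genes is given here, so the count is not a trait of the family. In the 5 type II genes among these 7, the first coding exon encodes the start of the protein, where the MADS domain lies. AGL80 and AT3G12510 have 1 exon, so any summit in their coding sequence falls in it. Their summits lay 442 and 495 bp and 224 and 267 bp after the start codon in replicates 1 and 2.

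The summits at FLC were 133 and 148 bp after the start codon, and those at MAF3 126 and 125 bp after it. At MAF2 the summit of replicate 2 was in the first coding exon, 120 bp after the start codon, and that of replicate 1 in the first intron at 270 bp. Both MAF2 summits lie in the 5′ UTR of another isoform. In AGL18 the summits were in the 5′ UTR, 63 and 11 bp before the start codon. SOC1 differed, with summits 805 and 830 bp from the gene start, in an intron of its 5′ UTR, 127 and 102 bp before the start codon.

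**Figure D5:**
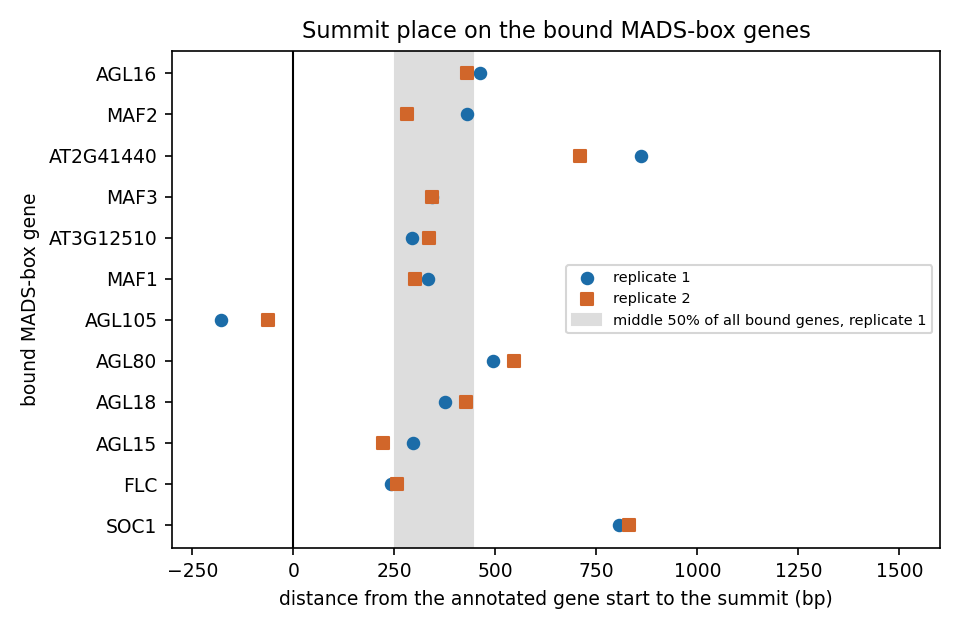
Distance from the annotated start to the summit (bp, horizontal axis) on the 12 bound MADS-box genes, replicate 1 as blue circles and replicate 2 as orange squares. The grey band is the middle 50% of all bound genes in replicate 1, 251 to 444 bp, the black line is the gene start, and AGL105 lies before the start while SOC1 and AT2G41440 lie far downstream.

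Peaks just upstream of unbound members stood on neighbouring genes. Adding 1000 bp upstream raised the bound count to 17 of 120, against 34.0% of all protein-coding genes. The strongest of the 5 added, AGL71, had folds of 5.09 and 3.545, with summits 255 and 225 bp downstream of the start of the adjacent gene AT5G51880. At AGL104 the summits were 287 and 335 bp downstream of the start of AT1G22140, and at AT4G37435 301 and 324 bp downstream of that of AT4G37440. The upstream peaks of AGL30 lay 494 and 535 bp downstream of the start of AT2G03050, and those of AGL77 over the non-coding genes AT5G00550 and AT5G05785.

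Words linked in plants to Polycomb recruitment were searched within 100 bp of the strongest summit on both strands. The Telobox, AAACCCTA, was found at AT2G41440 and AGL105 only, 2 of 12 bound members, against 16.5% and 16.6% of all bound genes in replicates 1 and 2. None of the 8 bound type II genes held it there. The word GAGAGAGA was found at none of the 12, against 7.40% and 7.19% of all bound genes. A match is a string of letters and not a proven site. The Telobox of AT2G41440 lies in an intron, 73 bp upstream of the summit of replicate 1, and is shown in capitals as read on the gene strand.
AT2G41440, chr2:17271915-17271944, plus strand: gttcgattttcTAGGGTTTtcattgttgat

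Of 18 flowering genes outside the family, chosen from general knowledge, 7 were bound (38.9%), against 7.04 at the share of like length. They include CONSTANS (CO), the photoperiod gene, with folds of 4.52 and 3.61, although its summits lay 3027 and 2998 bp from its start and so past the end of its 2924-bp body. FRIGIDA (FRI), an activator of FLC, had 3.65 and 3.13, and its summits were 182 and 200 bp from the start. LUMINIDEPENDENS (LD) had 3.23 and 2.88 and FCA had 3.89 and 2.70, and both keep FLC low in the autonomous pathway. FLD, FY and FPA of the same pathway were bound too. Each of these 7 genes had a higher fold than FLC in both replicates. FVE, also of the autonomous pathway, had a peak in replicate 2 only and was not bound. Every other unbound gene of the list, among them VIN3, VRN1 and VIL1, had no peak. FT, the mobile flowering signal, and LEAFY (LFY), the floral meristem regulator, had no peak.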

How the data were processed

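The authors aligned reads to TAIR10 with Bowtie2 2.4.5 and retained uniquely aligned ones. They called peaks with MACS3 3.0.0 in each IP replicate, with the 1 input as its control and a q-value limit of 0.01. Whether duplicate reads were removed is not given in the sources used here for these libraries. Fold enrichment, as deposited, is a ratio of IP to input at the summit after the caller's scaling. Each deposited list further holds −log10 p-values and −log10 q-values, which grow with depth, a whole-number score, and the offset of the summit. The fold, the −log10 q-value and the offset were used. Near-identical genes lose reads that align to several places. No values of the input alone were analysed.

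Only peaks on chromosomes 1 to 5 were used. 1 peak of replicate 1 and 63 of replicate 2 lay elsewhere. They were joined to the RefSeq TAIR10.1 genes, whose chromosomes hold all peaks within their lengths, with Python 3.11.15, numpy 2.4.6 and pandas 2.3.3. The strongest peak stood for a gene in each replicate. The share at like length is the bound share of other protein-coding genes in 10 strata of gene length, applied to each member. Uniqueness is the share of 31-base words of a gene that occur once in the genome. The type II list and its clades were written from general knowledge of the family, and all 45 of its symbols match the annotation. AGL63 is on it but its product text does not name the family, so it is not a member, and it had no peak. The genes named were every bound member, and every gene of the flowering and floral clades by count and the bound ones with values. Of the flowering genes outside the family, folds were given for the 4 with the largest lower fold. Others were named without folds. The members and lists were chosen with earlier results of these data known. The exon sequence of 1 gene of the FLC clade is not reported here. The overlap calculation was tested on simulated data, and the length calculation was not. Alternatives were stricter peak thresholds, other definitions of overlap, each replicate alone, other length strata and a different choice of members.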

Additional observations from a re-analysis of the deposited data

How the results depend on the processing

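The count of 12 bound members fell to 4 at a q-value of at most 1e-20, to 7 at a fold of at least 2 and to 0 at a fold of at least 3 in both replicates, where 10.1%, 14.4% and 3.00% of all genes were bound. At the same thresholds the type II count of 8 became 3, 4 and 0. The count of 4 outside the type II list became 1 at a q-value of at most 1e-20, 3 at a fold of at least 2 and 0 at a fold of at least 3, and 2 when members were taken as genes with MADS in the text or in the type II list (70 genes, which leaves out those with AGAMOUS-like text alone). The ratio of observed to like-length count, 0.425, was 0 at a fold of at least 3, where 2.95 genes were the like-length number, and 0.404 to 0.504 under every other alternative. The mean of the replicates' median folds, 2.12, was 2.77 over the 4 genes left at 1e-20. With replicate 1 alone and with replicate 2 alone 14 members each were bound, with 8 to 9 of type II, 5 to 6 outside it and ratios of 0.424 to 0.450. An alternative based on the summit's distance to the gene's own start, chosen after seeing the data, left 11 members. It dropped AGL105, whose summits lay before its start but nearer to it than to any other protein-coding start. The thresholds leave few genes by construction. No paired analysis was possible because there is 1 IP group and 1 input. The replicates differ widely in depth by the study's read totals, which were not used here, and weak binding below the caller's threshold was not detectable.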

Other observations

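From 500 bp before to 250 bp after the annotated start, the Telobox word AAACCCTA, searched on both strands, was present in 33 of 120 MADS-box genes (27.5%), against 16.6% of all protein-coding genes. Within the family it stood in 3 of 12 bound genes (25.0%) and 30 of 108 unbound genes (27.8%), while over all protein-coding genes it stood in 25.3% of bound and 13.1% of unbound ones. AGL15, AGL18 and AGL105 were the bound members with it. The word GAGAGAGA was present in 29 of 120 members (24.2%), against 25.1% of all protein-coding genes. It stood in 4 of 12 bound members (33.3%) and 25 of 108 unbound ones (23.1%), against 29.5% and 23.3% over all protein-coding genes. Of the 44 type II genes 18 held it (40.9%), with 37.5% of bound and 41.7% of unbound ones. The Telobox word stood in 14 of these 44 (31.8%). No test was made of these shares.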
